A study of Caenorhabditis elegans with 6 samples.

Results

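A set of 6 lipid-regulating nuclear receptors and the Mediator subunit MDT-15 was described here in whole adult Caenorhabditis elegans after RNA interference (RNAi). The genes are nhr-49, nhr-80, nhr-79, nhr-13, nhr-66, nhr-8 and mdt-15, chosen by name for their known or proposed roles in lipid regulation. All 7 were found, each at 1 locus with the same label in every table, among 14786 loci used of 15796 listed. Wild-type worms of the Bristol N2 strain were kept at 20 °C and fed, from the L4 larval stage, bacteria that make double-stranded RNA on plates with 6 mM IPTG. The offspring were collected as adults. The control group of 3 biological replicates was fed against tag-208 (sorb-1 in current annotation), and the other 3 were fed against prx-5, the receptor that brings enzymes into the peroxisome. Both groups were therefore under RNAi, and no group without RNAi was analysed here.

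Nuclear receptors are transcription factors whose activity can be switched by small fat-soluble molecules. NHR-49 belongs to the large nematode branch related to the vertebrate receptor HNF4 and turns on genes for fatty acid desaturation and fatty acid breakdown. NHR-80 and NHR-13 act with it on the desaturase genes, and NHR-66 acts with it to hold down sphingolipid breakdown genes. NHR-8 lies in a different branch, close to the vertebrate sterol and xenobiotic receptors, and controls cholesterol balance and the supply of the steroid hormone dafachronic acid. MDT-15 is a subunit of Mediator, the complex that links such factors to RNA polymerase, and binds NHR-49 and the sterol-response factor SBP-1. Much of this regulation takes place in the intestine, the main fat-storing tissue of the worm.

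Levels are FPKM, fragments scaled to transcript length and to the mapped fragments of the library, which can be compared between genes. Fold changes are the prx-5-labelled group minus the control on the scale of log2(FPKM + 1), with the standard error (SE) of a limma fit over all loci. A gene was called at a Benjamini-Hochberg adjusted p under 0.05. Loci were tested if their mean over the 6 libraries reached 1 FPKM, 13347 in all. The added 1 FPKM makes fold changes of low genes smaller than they are. All 7 genes passed the limit of 1 FPKM, and each would have passed it on its control libraries alone. Coordinates are those of the deposited loci, counted from 1, and lie on the same genes in WBcel235.

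RNA of the targeted gene prx-5 went against its label. In the prx-5-labelled libraries prx-5 itself was listed at 14.9, 21.3 and 23.5 FPKM, and in the control libraries at 4.48, 4.73 and 3.50 FPKM. It was thus higher where it should have been reduced (log2 fold change 1.98 ± 0.22 SE, adjusted p = 0.00866), so every direction below is that of the labels. The control's own target, sorb-1, had 11.5, 12.9 and 6.96 FPKM in the control libraries and 13.6, 14.8 and 25.6 FPKM in the prx-5-labelled ones. It was lower where it was targeted, with groups apart, but the log2 change (0.72 ± 0.31 SE) missed the threshold (adjusted p = 0.232). Not every tissue marker looked for had a locus among those used. Measured were 15 of 15 intestine, 19 of 20 germline and oocyte, 7 of 12 sperm and 8 of 10 hypodermis markers. So were 9 of 10 body wall muscle, 10 of 10 neuron and 8 of 10 embryo markers. No measured marker was at 0 in every library. The depth in reads is unknown, since the tables give FPKM only. In bulk samples like these, fewer cells of a type and less RNA per cell cannot be told apart.

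Among the 7 genes, nhr-79 and nhr-80 rose in the prx-5-labelled libraries, and none fell. The rise was 4.17-fold for nhr-79 and 2.85-fold for nhr-80 by the group means. The share called higher among all tested loci was 7.49%, and the share called lower was 1.2%. In 4 of the 7 genes (nhr-79, nhr-80, nhr-8 and nhr-13) all prx-5-labelled values lay above all control values, an order found in 21.2% of all tested loci. The opposite order, found in 5.8% of loci, was seen in 0 of the 7. The best-known pair of the set, nhr-49 and mdt-15, had overlapping groups and did not pass the test. The median log2 fold change of the 7 was 0.48, against 0.04 over all loci and 0.63 over 159 other nuclear receptor genes.

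**Figure D1:**
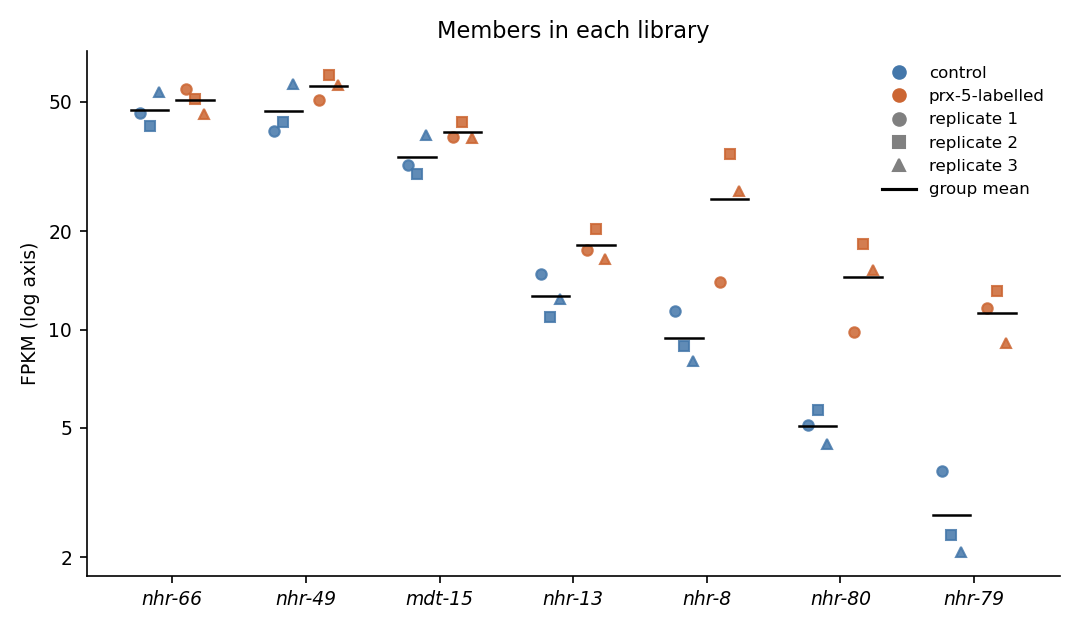
FPKM of the 7 genes in each library on a log axis, with control libraries in blue, prx-5-labelled libraries in orange, 1 symbol per replicate number and bars at the group means. The groups are apart for nhr-13, nhr-8, nhr-80 and nhr-79, and they overlap for nhr-66, nhr-49 and mdt-15.

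The receptor NHR-49 is the centre of the set, and its gene was among the most abundant receptor transcripts. Its level was 40.6, 43.3 and 56.5 FPKM in control replicates 1, 2 and 3, and 50.7, 60.5 and 56.3 FPKM in prx-5 replicates 1, 2 and 3. The groups overlapped, because control replicate 3 lay above 2 of the 3 prx-5-labelled libraries. The group levels were 46.8 ± 8.49 and 55.8 ± 4.92 FPKM (SD, n = 3), a log2 fold change of 0.26 ± 0.17 SE (adjusted p = 0.435). The 95% interval of that change ran from -0.15 to 0.67, so a modest change in either direction lies inside it. The authors' deposited table gave 0.12 (log2) and a q of 0.719 for nhr-49. The locus lies on chromosome I from 9869718 to 9874676, on the forward strand, and covers 98.6% of the annotated gene.

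The gene of MDT-15, the coactivator that NHR-49 binds, had a small change that did not pass the test, as did nhr-49. The gene mdt-15 was listed at 32.1, 30.1 and 39.6 FPKM in the control libraries and at 38.96, 43.4 and 38.7 FPKM in the prx-5-labelled ones. As for nhr-49, control replicate 3 reached into the range of the other group. The log2 fold change was 0.25 ± 0.16 SE (95% interval from -0.12 to 0.62, adjusted p = 0.409), and the authors' deposited table gave 0.12 (q = 0.726). The locus on chromosome III, from 5827923 to 5834076 on the reverse strand, also holds R12B2.8 on the opposite strand, whose exons share 95 bp with those of mdt-15. That neighbour was listed on its own, with 14.4 to 18.96 FPKM in the control libraries and 12.4 to 24.1 in the others. Whether the counting used strand was not stated, so reads in the stretch shared with R12B2.8 cannot be told apart. In the annotation R12B2.13, a gene of 93 bp on the same strand as mdt-15, lies wholly within mdt-15 exons. Strand would not separate its reads.

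Of the partners of NHR-49 in desaturase regulation, nhr-80 rose and nhr-13 did not pass the test. NHR-80 is required for full expression of the genes that make oleic acid. The level of nhr-80 was 5.09, 5.67 and 4.46 FPKM in the control libraries and 9.83, 18.3 and 15.3 FPKM in the prx-5-labelled ones. All 3 of the latter lay above all controls, with prx-5 replicate 1 the nearest to them. Its log2 fold change was 1.31 ± 0.25 SE (adjusted p = 0.0257), and the authors' deposited table called it as well (1.38, q = 0.00101). The call was lost in several fits without 1 library. The adjusted p of nhr-80 was 0.0780 without control replicate 1 and 0.106 without control replicate 3. It was 0.0992 without prx-5 replicate 2 and 0.0992 without prx-5 replicate 3. The log2 fold change in these fits, in the same order, was 1.32, 1.24, 1.13 and 1.26. Such fits have fewer samples, and calls over all loci fell too, from 1160 to 306, 78, 155 and 123. Under other scalings nhr-80 missed the threshold as well, with median ratios (0.0549) or the authors' constants (0.0525). The locus runs from 12117 to 14877 on chromosome III, reverse strand, and covers 95.4% of the annotated gene.

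NHR-13 shares desaturase targets with NHR-49 and NHR-80. Its gene had 14.8, 10.9 and 12.4 FPKM in the control libraries and 17.5, 20.4 and 16.5 FPKM in the prx-5-labelled ones. The groups did not overlap, but they lay close together. The change in nhr-13 was 0.48 ± 0.18 SE on the log2 scale and missed the threshold (adjusted p = 0.165), with a 95% interval from 0.07 to 0.90 that takes no account of the number of loci tested. It was not significant in the authors' deposited table either (0.38, q = 0.393). The locus lies on chromosome V from 2192550 to 2196838, on the forward strand.

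NHR-79 has been reported to pair with NHR-49 in the intestine. Its gene nhr-79 had the largest fold change of the 7 and also the lowest control level. It was listed at 3.69, 2.35 and 2.08 FPKM in the control libraries and at 11.6, 13.1 and 9.09 FPKM in the prx-5-labelled ones. The groups were well apart, since the lowest prx-5-labelled value (9.09 FPKM) lay far above the highest control value (3.69 FPKM). The log2 fold change was 1.74 ± 0.24 SE (adjusted p = 0.0132), and the authors' deposited table gave 1.92 (q = 0.00101). With the pseudocount at 0.1 in place of 1 it was 2.05, since the added 1 FPKM weighs on a gene at this level. The call was lost without control replicate 3 (adjusted p = 0.0644) and without prx-5 replicate 2 (0.0573). The locus is on chromosome V, from 19207676 to 19211830 on the reverse strand.

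NHR-66, the partner of NHR-49 in repressing sphingolipid breakdown, had a level much like that of nhr-49 and the smallest change of the set. The gene nhr-66 had 46.2, 42.0 and 53.4 FPKM in the control libraries and 54.8, 50.9 and 45.8 FPKM in the prx-5-labelled ones. The groups overlapped almost fully. On the log2 scale the change was 0.10 ± 0.15 SE (adjusted p = 0.748), it turned to -0.02 with median-ratio scaling and -0.04 with the authors' constants, and its 95% interval ran from -0.27 to 0.46. The locus, on chromosome IV from 8225676 to 8236598 on the reverse strand, held 10 RefSeq transcripts of nhr-66, summed to 1 value. Inside it, on the opposite strand, lies T09A12.5 (now serp-1.2), listed at 263 to 352 FPKM in the control libraries and 176 to 325 in the others. The exons of both genes share 22 bp, and an antisense RNA, anr-44, shares 108 bp with nhr-66.

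NHR-8 is the sterol-related receptor, and its gene had the largest SD of the set in the prx-5-labelled group (10.4 FPKM, n = 3). The gene nhr-8 was listed at 11.4, 8.87 and 7.99 FPKM in the control libraries and at 13.96, 34.6 and 26.7 FPKM in the prx-5-labelled ones. The groups did not overlap, but prx-5 replicate 1 lay near the controls and well below the other members of its group. The change was 1.25 ± 0.33 SE on the log2 scale, which missed the threshold (adjusted p = 0.0635). The authors' deposited table gave 1.29 and did not call it (q = 0.120). Without prx-5 replicate 1 the change was 1.61 and passed (adjusted p = 0.00755).

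The locus of nhr-8, on chromosome IV from 7711039 to 7718001 with the gene on the forward strand, extends over the next gene, F33D4.6, which runs the other way. Their exons share 47 bp at the ends where both genes stop. F33D4.6 was listed on its own at 2.395, 19.1 and 0.988 FPKM in the control libraries and 9.38, 16.3 and 21.4 FPKM in the prx-5-labelled ones. Control replicate 2 was high in F33D4.6 and not in nhr-8. In the prx-5-labelled libraries replicate 1 was the lowest of its group in both genes, and both had higher group means there. Of the deposited locus, 45.6% lies inside the annotated nhr-8 gene. What part F33D4.6 reads had in the nhr-8 values was not tested.

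The authors' own test, in their deposited table, was significant for 2 of the 7 genes, nhr-79 and nhr-80, both higher. It called 9.52% of the tested loci higher and 4.85% lower. It was made from the same 6 libraries and is not independent of the fit given here.

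The order of the levels changed little between the groups. In the control libraries nhr-66 (47.2 FPKM) and nhr-49 (46.8 FPKM) came first with overlapping values, followed by mdt-15 (33.9 FPKM). Then came nhr-13 (12.7 FPKM) and nhr-8 (9.41 FPKM), which overlapped, nhr-80 (5.07 FPKM) and nhr-79 (2.71 FPKM). In 4 of the 6 steps between neighbours the libraries of both genes did not overlap. In the prx-5-labelled libraries nhr-49, nhr-66 and mdt-15 were again the upper 3, and mdt-15 did not overlap with the genes on either side. Below them nhr-8 (25.1 FPKM), nhr-13 (18.1), nhr-80 (14.5) and nhr-79 (11.3) each overlapped with the next. As ratios, the lower 4 genes thus lay closer together than in the controls.

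Levels relative to nhr-49 within a library do not depend on scaling each library by a single factor. Quantile normalization is not such a scaling and can change them. The log2 ratio of nhr-79 to nhr-49 was -4.14 ± 0.65 in the controls (SD, n = 3) and -2.32 ± 0.27 in the other group, a difference of 1.82. For nhr-80 the ratio went from -3.20 ± 0.40 to -1.99 ± 0.33, a difference of 1.21. These were the ratios whose groups did not overlap. A two-sided exact permutation test gave p = 0.1 for each, the smallest p that 3 against 3 libraries allow, and an adjusted p of 0.3 over the 6 ratios, so neither could pass. The ratio of nhr-8 was 1.07 higher by the means, but prx-5 replicate 1 (-1.86) lay within the controls (exact permutation p = 0.2). Differences were 0.25 for nhr-13 and -0.17 for nhr-66, with overlapping groups.

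The ratio of mdt-15 to nhr-49 was the steadiest, at -0.34, -0.53 and -0.51 in the controls and -0.38, -0.48 and -0.54 in the prx-5-labelled libraries. The means differed by -0.01 (exact permutation p = 0.9), so mdt-15 stayed near the same fraction of nhr-49 in all 6 libraries.

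**Figure D2:**
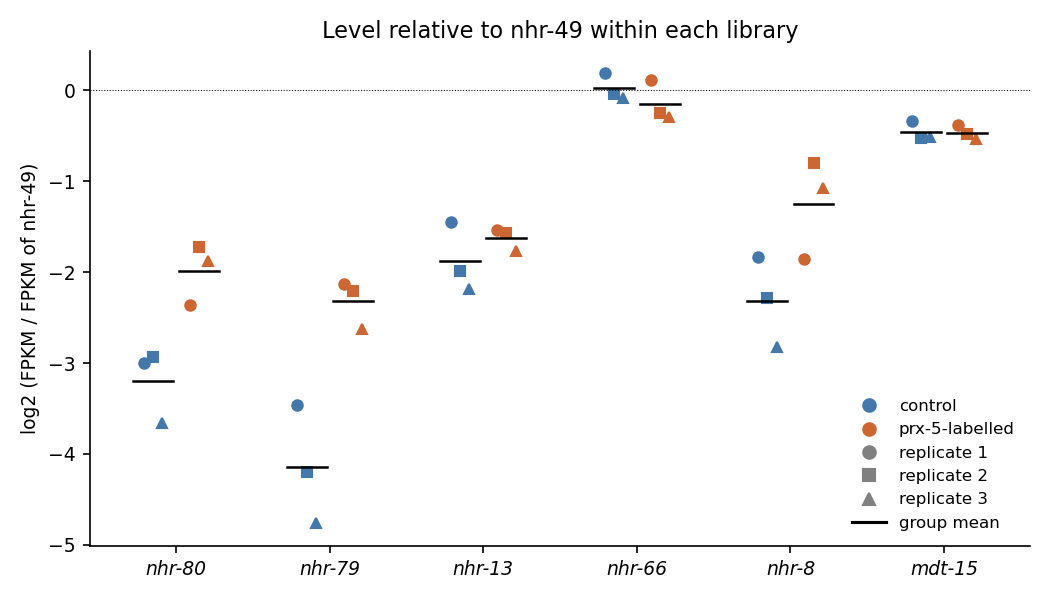
Log2 ratio of each gene's FPKM to that of nhr-49 in the same library, with controls in blue, prx-5-labelled libraries in orange and bars at the group means. The groups are apart for nhr-80 and nhr-79, while mdt-15 stays between -0.34 and -0.54 in every library.

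The same libraries were also compared by the root mean square difference of the 6 log2(FPKM + 1) values, each gene centred on its own mean. This is another view of the same values and not independent of the ratios. Of the 21 pairs among the 7 genes, nhr-49 and mdt-15 were the closest (0.07) and nhr-79 and nhr-66 the farthest apart (0.86). After the closest pair, nhr-66 differed from mdt-15 by 0.12 and from nhr-49 by 0.17, and nhr-80 differed from nhr-8 by 0.19. Among 6315 other genes with a letter and number name, the nearest to nhr-49 were par-1, gck-1 and ell-1 (0.05 to 0.06). The nearest to mdt-15 were gbf-1, ubc-1 and zfp-1 (0.03 to 0.04). These genes were thus nearer to nhr-49 or to mdt-15 than nhr-49 and mdt-15 were to each other. The nearest to nhr-66 were nrde-3, rig-4 and mafr-1. Those nearest to nhr-13 were lin-10, let-23 and ver-3.

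The genes nearest to nhr-80 were lec-10 (0.04), gbh-2 (0.06) and cul-6 (0.07). For nhr-8 they were ttm-5 (0.09), which encodes a sphingolipid desaturase, gst-36 and srv-1, and for nhr-79 they were fbxa-189 (0.13), maa-1 and pmp-2 (0.18), the last of which encodes a peroxisomal membrane transporter. These names are a description of 6 libraries from 2 groups.

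The 7 genes were set beside the rest of the receptor family, which is unusually large in this worm. Of 159 other tested genes with an nhr name, 31 rose, or 19.5% of them against 7.49% of all tested loci. Of the 159, 0 fell and 147 had a positive fold change. Their median log2 fold change of 0.63 was above that of the 7 genes here. A rise of receptor transcripts was thus not particular to the lipid regulators. Among all 165 tested receptor genes, nhr-79 had the highest fold change (1.74), directly ahead of nhr-193 (1.73 ± 0.29 SE), while nhr-80 was at rank 11 and nhr-8 at rank 13. That first rank depends on the added 1 FPKM: by the plain ratio of group means nhr-79 (4.17-fold) was at rank 6, behind genes of lower control level led by nhr-193 (5.16-fold, from 1.45 to 7.48 FPKM). Further down came nhr-13, then nhr-49 at rank 134 and nhr-66 at rank 148. The genes with the smallest p outside the set were nhr-168 (1.40), nhr-173 (1.70), nhr-121 (1.51) and nhr-18 (1.18), all called and named after their values were seen.

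The receptor genes differed in fold change by level. Of 113 others under 5 FPKM in the controls, 25 rose, at a median of 0.75 on the log2 scale. Of 39 between 5 and 20 FPKM, 6 rose (median 0.31), and of 7 above 20 FPKM, 0 rose (median 0.14). By control level nhr-66 and nhr-49 were the highest receptors after nhr-114 (76.0 FPKM in the controls and 66.7 in the prx-5-labelled libraries). Both thus sat among abundant receptors with small changes, and nhr-79 among low ones with larger changes. The control values set both the level and the baseline of the fold change, so part of this relation may be built in. No such split by level was made over all loci. None of the 31 calls was kept without control replicate 3, without prx-5 replicate 2 or without prx-5 replicate 3, and 10 were kept with the authors' constants.

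**Figure D3:**
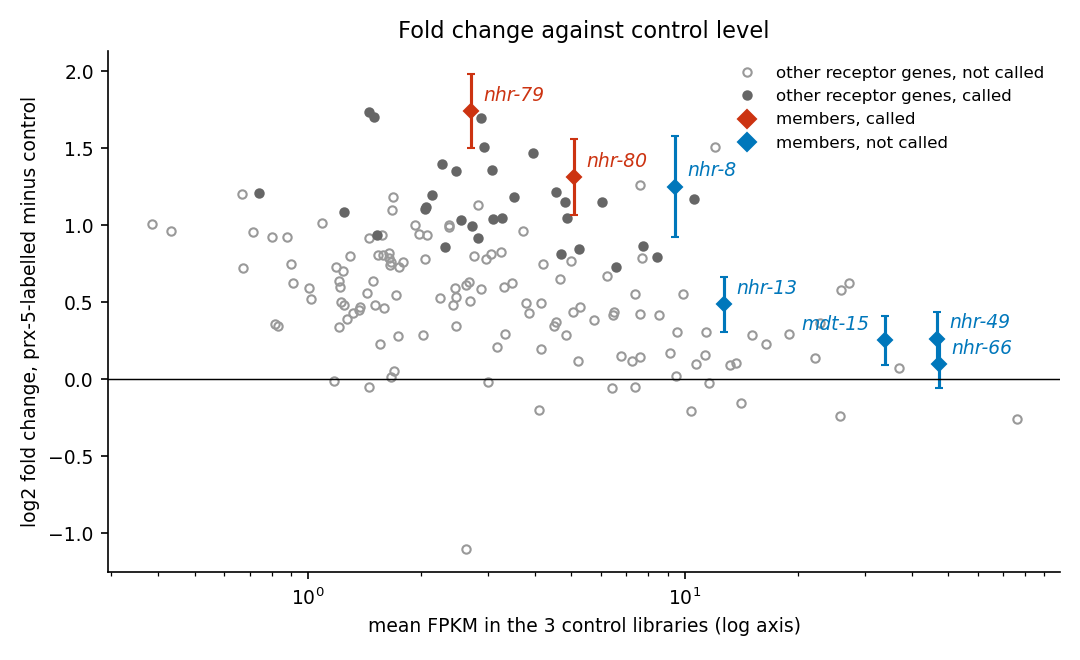
Log2 fold change of every tested receptor gene and mdt-15 against its mean control FPKM on a log axis, with the 7 genes as diamonds (bars are SE) and the 159 others as circles, filled where called. The 31 called others all lie below 20 FPKM in the controls, and nhr-49, nhr-66 and mdt-15 lie at the right, near 0.

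Of 33 other tested regulators of lipid genes, 8 rose (24.2%, against 7.49% of all tested loci) and 0 fell, and 30 had a positive change (median 0.63). This list was written with earlier results of these data known, so its share is not independent evidence. The largest change was that of pqm-1, a zinc-finger factor of intestinal metabolic genes, with 8.23, 14.4 and 8.60 FPKM in the controls and 36.5, 78.5 and 62.6 in the prx-5-labelled libraries. Its log2 fold change was 2.37 ± 0.33 SE (adjusted p = 0.0130). The receptors nhr-117, nhr-35 and nhr-88 rose by 1.11, 1.15 and 0.86 on the log2 scale. They are also among the other receptor genes counted above, so the lists overlap. SBP-1, the worm's sterol-response factor and the other main partner of MDT-15, had 8.70, 6.35 and 5.70 FPKM against 11.3, 17.2 and 13.5 FPKM for its gene sbp-1. These groups were apart, but the change (0.92 ± 0.23 SE) missed the threshold (adjusted p = 0.0525). None of the 8 calls was kept without control replicate 3 or without prx-5 replicate 3, 1 was kept without prx-5 replicate 2, while the authors' constants left 3.

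The other Mediator subunits that were measured showed no call. Of 33 other subunit names looked for, 20 had a locus among those used, and all 20 were tested. Of these, 0 passed the limma test, also 0 at an unadjusted p under 0.05, and the median log2 fold change was -0.13. The authors' deposited table called 1, mdt-17, lower (-0.62, q = 0.0144). The 4 genes with the smallest p were mdt-17 (-0.50 ± 0.24 SE) and dpy-22, let-19 and cdk-8 (0.29, 0.25 and 0.28), of which the latter belong to the kinase module of Mediator. Of these, dpy-22 and let-19 turned to -0.03 and -0.04 with quantile normalization. The log2 fold change of mdt-15, 0.25, lay within the range of the other subunits, from -0.50 to 0.29.

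Genes known to be turned on through NHR-49, NHR-80, NHR-13 or MDT-15 changed in both directions. The list was written with earlier results of these data known and holds peroxisomal genes, so its direction is not independent evidence. Of 28 tested, 11 rose (39.3%) and 2 fell, against 7.49% and 1.2% of all tested loci, and the median change was 0.85. The 4 with the smallest p were K05B2.4 (4.50 ± 0.25 SE), the short-chain dehydrogenase gene dhs-18 (3.40), the peroxisomal protease gene Y75B8A.4, now lonp-2 (3.30), and the peroxisomal catalase gene ctl-2 (2.74). One of the 2 that fell was acdh-2, an acyl-CoA dehydrogenase gene named after its values were seen. It had 74.5, 83.7 and 74.7 FPKM in the controls and 13.3, 6.78 and 4.86 in the prx-5-labelled libraries (-3.18 ± 0.32 SE, adjusted p = 0.00652). The other was fat-7. K05B2.4 went from 0.152 to 0.425 FPKM in the controls to 20.5 to 36.7 in the prx-5-labelled libraries. The flavin monooxygenase gene fmo-2, a common readout of NHR-49, had 0.603, 1.63 and 1.31 FPKM against 4.98, 6.58 and 4.11 (1.53 ± 0.28 SE, adjusted p = 0.0233). Its call was lost with quantile normalization and in 4 of the 6 fits without 1 library (all but control replicate 2 and prx-5 replicate 1). Between 5 and 8 of the 11 higher calls were kept when control replicate 1 or 3 or prx-5 replicate 2 or 3 was left out.

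The fatty acid desaturases fat-5, fat-6 and fat-7, the genes on which NHR-49, NHR-80 and NHR-13 act together, gave 1 call in 3 genes by limma and 2 in the authors' deposited table. They turn saturated into monounsaturated fatty acids. The gene fat-7 had 20.02, 48.1 and 47.0 FPKM in the controls and 8.52, 1.32 and 3.61 FPKM in the prx-5-labelled libraries. It fell by 2.98 on the log2 scale (SE 0.55, adjusted p = 0.0247), in the same libraries in which nhr-80 was higher. The stearoyl-CoA desaturase fat-6, a close relative of fat-7, had 186, 179 and 141 FPKM against 214, 243 and 253 (0.49 ± 0.17 SE, adjusted p = 0.142). The palmitoyl-CoA desaturase fat-5 had 41.6, 48.7 and 48.96 FPKM against 16.9, 32.2 and 40.9 (-0.69 ± 0.31 SE, adjusted p = 0.245), and the authors' deposited table called it lower (-0.76, q = 0.0338). The groups were apart in all 3 genes, downwards for fat-7 and fat-5 and upwards for fat-6. Over all tested loci the groups were apart downwards in 5.8% and upwards in 21.2%. The coding regions of fat-6 and fat-7 are very alike, so reads between them may have been split by the authors' counting. The call of fat-7 was lost when control replicate 3 or prx-5 replicate 2 or 3 was left out (adjusted p from 0.0714 to 0.106).

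The acyl-CoA synthetase acs-2, the most used reporter of NHR-49 in fasted worms, varied widely within the controls. It was listed at 2.63, 22.4 and 24.96 FPKM there and at 22.5, 53.7 and 33.4 FPKM in the prx-5-labelled libraries. Control replicate 1 lay far below the other controls, and the groups overlapped (1.44 ± 0.75 SE, adjusted p = 0.319). The authors' deposited table called acs-2 higher, with a log2 value of 1.00 (q = 0.00101).

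Of 21 tested sphingolipid enzyme genes, 9 rose (42.9%, against 7.49% of all tested loci) and 0 fell (median 0.71 on the log2 scale). This list was also written with earlier results of these data known, so its share is not independent evidence. NHR-66 and NHR-49 hold down some of its genes, and what part that had here was not tested. The 4 genes named below had the smallest p of the list. The glucosylceramidase gene gba-1 had 5.001, 4.52 and 2.94 FPKM in the controls and 24.5, 73.0 and 56.8 in the prx-5-labelled libraries (3.24 ± 0.40 SE, adjusted p = 0.0103). The ceramidase gene F27E5.1, now asah-2, rose by 2.38 and the sphingomyelinase gene asm-2 by 1.54. The serine palmitoyltransferase gene sptl-2, which acts in synthesis and not in breakdown, rose by 2.31. Of the 9 calls, 1 was kept without control replicate 3, 2 without prx-5 replicate 2 and 1 without prx-5 replicate 3. With the authors' constants 6 were kept.

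Genes of cholesterol transport and dafachronic acid synthesis, the setting of NHR-8, gave 1 call among 6 tested at a median of 0.43 on the log2 scale. That call was higher, as were 7.49% of all tested loci. The oxygenase gene daf-36, which starts the synthesis of dafachronic acid from cholesterol, had 15.3, 11.1 and 7.41 FPKM in the controls and 27.02, 30.2 and 31.2 in the prx-5-labelled libraries. It rose by 1.36 ± 0.25 SE on the log2 scale (adjusted p = 0.0236), and the call was lost when control replicate 3 or prx-5 replicate 2 or 3 was left out. The cholesterol transporter gene ncr-1 had 1.99, 2.97 and 2.49 FPKM against 3.77, 9.09 and 8.14 (1.14 ± 0.32 SE, adjusted p = 0.0787). It passed with the replicate block (adjusted p = 0.0368) and without prx-5 replicate 1 (1.47, adjusted p = 0.0102), and the authors' deposited table called it higher (1.37, q = 0.00101). As for nhr-8, prx-5 replicate 1 was the lowest of its group in ncr-1. The genes emb-8 and din-1 had changes of 0.49 and 0.37 that did not pass.

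**Figure D4:**
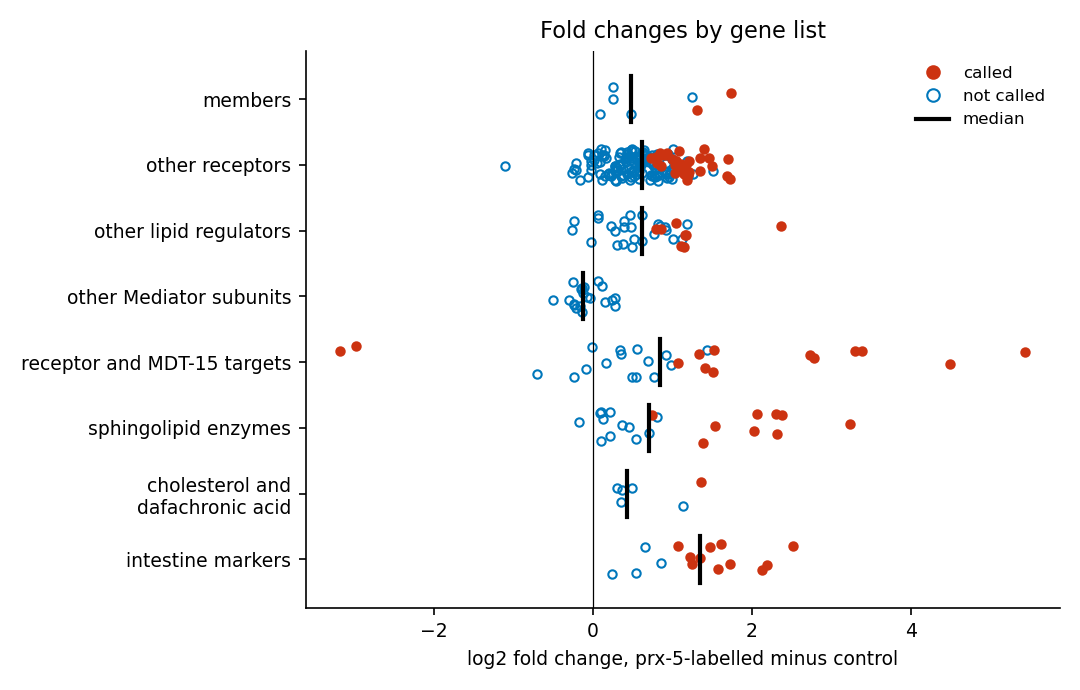
Log2 fold changes of all tested genes by list, with called genes filled in red, others open in blue and black bars at the medians. The medians are 0.48 for the 7 genes, 0.63 for the other receptors, -0.13 for the other Mediator subunits and 1.35 for the intestine markers.

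The libraries also differed in their tissue markers. Of 15 tested intestine markers, 11 rose (73.3%, against 7.49% of all tested loci) and 0 fell (median 1.35). The marker lists, too, were written with earlier results of these data known, so this share is not independent evidence. The summed level of the intestine markers was 1799 to 2433 FPKM in the controls and 4554 to 7024 in the prx-5-labelled libraries. These 11 calls came down to 0 without control replicate 3, 1 without prx-5 replicate 2, 1 without prx-5 replicate 3, 2 without control replicate 1, and 6 with median-ratio scaling or the authors' constants. The median log2 fold change stayed between 1.16 and 1.46 in these and the other alternatives. Their median deviation from the control mean was 1.01, 1.58 and 1.37 in prx-5 replicates 1, 2 and 3. The deviation of nhr-80 was 0.84, 1.67 and 1.43, and that of nhr-8 was 0.54, 1.79 and 1.42. These genes and the markers thus had their lowest value of the group in replicate 1. So did the medians of the other receptor genes (0.40, 0.77 and 0.74) and of the other lipid regulators (0.37, 0.87 and 0.83). This order was thus not particular to the intestine markers. Over all tested loci the medians were 0.13, 0.02 and 0.03, lowest in replicate 2. The deviation of nhr-79 was 1.79, 1.96 and 1.47, with its lowest value in replicate 3. For nhr-49 the deviations were 0.13, 0.38 and 0.28, below those of the markers in each library. What part the intestine markers' shift had in the members' changes was not tested.

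Over all tested loci 7.49% were called higher and 1.2% lower. Of 19 germline and oocyte markers, 0 were called by limma and 0 had an unadjusted p under 0.05. The authors' deposited table called 2 of the 19 lower. All 19 had a negative change (median -0.28), and their summed level was 3425 to 4886 FPKM in the controls and 2901 to 4516 in the others. Of 9 body wall muscle markers 1 fell, mup-2 (median of the list -0.68), and the sum was 5421 to 5457 FPKM against 2522 to 4096. In 6 of the 9 the unadjusted p was under 0.05, 6 had all prx-5-labelled values below all controls, and the authors' deposited table called 6 lower. Without prx-5 replicate 1 limma called 5 lower, and 0 without control replicate 1 or 3 or prx-5 replicate 2 or 3. With median-ratio scaling or the authors' constants it called 3. Of 8 hypodermis markers 1 fell, the adult collagen gene col-19, and 6 had a positive change (median 0.87), with sums of 1039 to 1340 FPKM against 539 to 738. The authors' deposited table called 4 of the 8 higher and 1 lower, and limma called 3 higher without control replicate 2. Of 10 neuron markers 1 rose, unc-64 (median 0.34), with sums of 273 to 336 FPKM against 331 to 378. The call of unc-64 was lost with median-ratio scaling, the authors' constants, quantile normalization, variance without a trend and the replicate block, and in 5 of the 6 fits without 1 library (all but prx-5 replicate 1). The authors' deposited table called 0 of these 10. Of 7 sperm and 6 embryo markers 0 were called by limma, while 2 and 1 had an unadjusted p under 0.05 (medians -1.05 and 0.22). The sums were 69.1 to 254 against 36.9 to 80.2 FPKM for sperm and 139 to 190.4 against 147 to 177.8 FPKM for embryo. Groups were apart downwards in 2 of the sperm markers and upwards in 2 of the embryo markers. The authors' deposited table called 2 sperm markers lower and 1 embryo marker higher. Limma called 1 sperm marker lower with a pseudocount of 0.1 or 0.5, a mean of at least 5 FPKM or quantile normalization. With the replicate block it called 3 lower, and without prx-5 replicate 1 it called 1 embryo marker higher. The part of these tissue markers in the members' changes was not tested either.

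**Figure D5:**
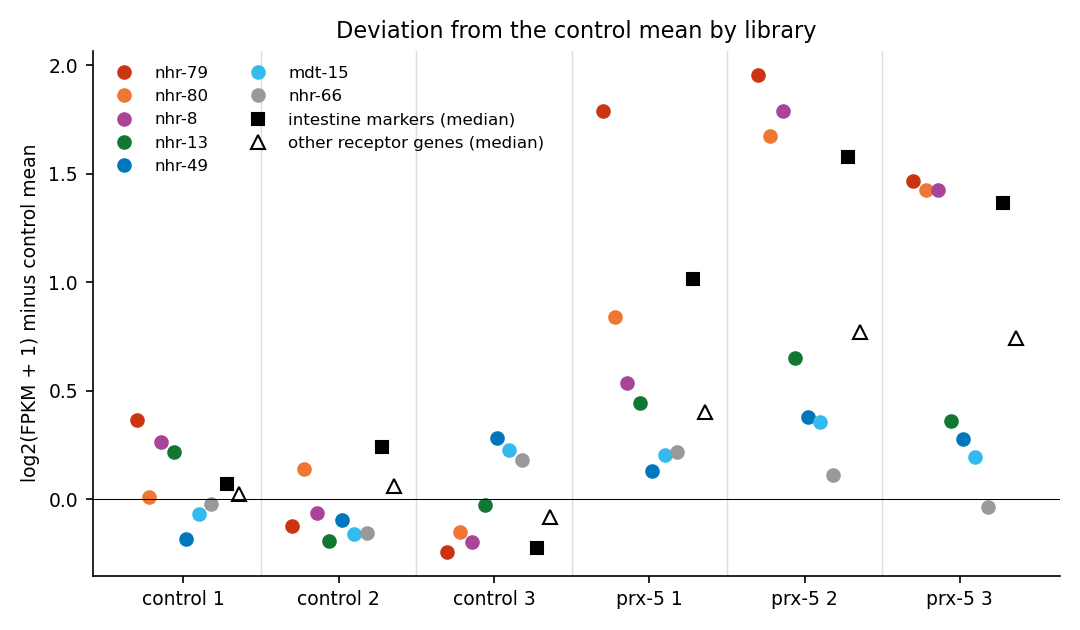
Deviation of log2(FPKM + 1) from the control mean in each library for the 7 genes (circles), the median of 15 intestine markers (squares) and the median of the 159 other receptor genes (triangles). In prx-5 replicates 2 and 3 nhr-79, nhr-80 and nhr-8 lie just above the intestine markers, and in replicate 1 nhr-79 alone does.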

How the data were processed

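Per the file headers, the authors deposited FPKM for each of 6 libraries and, for each group, an FPKM value, a log2 fold change, a test statistic (a score), a p-value and a q-value per locus. Cuffdiff, Cufflinks, Bowtie and CASAVA were used, per the submitters' processing notes, which carry no version. What genome build, gene models and filters were used is not given in the sources used here. Coordinates were set beside those of WBcel235 (Ensembl release 115), where 14396 of 14485 single-gene loci were found, and starts were moved to counting from 1.

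Of 15796 loci, 913 with labels that differed between tables and 97 whose library values did not give the authors' group values within 2% were left out. Where the status read FAIL or HIDATA, the value was treated as missing. FPKM were taken as deposited, as log2(FPKM + 1), and loci whose mean reached 1 FPKM were fitted by limma (version 3.58.1, R 4.3.3; moderated, variance trend, Benjamini-Hochberg adjustment over 13347 loci). The fit was tested on simulated data. The number of reads is unknown and could not be recovered: of the ratios of low values to control replicate 1, at most 34.1% per library lay on steps of small whole numbers.

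The authors' constants, recovered from their group values, are 1.04, 1.08 and 1.03 for control and 0.916, 0.977 and 0.970 for prx-5 replicates 1, 2 and 3. The members, gene lists, alternatives and named genes (all members, both targets, up to 4 genes of a list with the smallest p, a few fixed desaturase and reporter genes, and the 3 nearest patterns) were chosen with earlier results of these data known. Replicates are called biological in the study's design. The limma p-values set the group difference against the spread between these samples, moderated over all tested loci.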

Additional observations from a re-analysis of the deposited data

How the results depend on the processing

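Of the 7 genes, 2 were called higher, nhr-79 and nhr-80. The count was 1 with median-ratio scaling and 1 with the authors' constants, and between 0 and 3 when 1 library was left out, in fits with fewer samples. No member was called lower in any setting. The direction of nhr-49, nhr-80, nhr-79, nhr-13, nhr-8 and mdt-15 held in all 15 alternatives, while nhr-66 turned to -0.0179 (median-ratio scaling) and -0.0385 (authors' constants). The genes dpy-22 and let-19 turned to -0.0258 and -0.0385 with quantile normalization. Over all loci, 1000 were called higher and 160 lower. The higher count was 512 with median-ratio scaling, 522 with the authors' constants and 531 with quantile normalization. Without 1 library it ranged from 62 to 1460 and the lower count from 16 to 388. The median shift under those scalings was -0.11, -0.13 and -0.26 (log2), and higher loci made up 86.2% of the calls as deposited, 73.4%, 73.1% and 68.96%. With the replicate block, nhr-79 and nhr-80 had the adjusted p-values 0.00797 and 0.0194, and 1253 loci were called against 1160. Same-numbered libraries deviated together in replicates 1 and 2 (correlations 0.29 and 0.23) but not in 3 (-0.12). These values do not settle whether the numbers pair the samples. The cause of these moves was not tested. The depth in reads is unknown, which limits what can be said of low genes such as nhr-79.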
